A study of Homo sapiens with 44 samples.

Results

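Ccd-18Co is an established line of human colon fibroblasts. Its response to IFNγ was described from 8 of 44 bulk RNA-seq libraries, 4 of cells given IFNγ and 4 of unstimulated cells, chosen by their titles. In the full experiment, 10 cytokines were each compared with the same unstimulated cells, with 4 libraries in each of 11 groups. Cells were used up to passage 20, deprived of serum over 72 h and collected after 24 h of stimulation, so the controls had been starved as well. IFNγ was given at 10 ng/ml, and the unstimulated cells received no cytokine. The 4 libraries of cells given IFNα at 10 ng/ml were used as well, for a direct comparison with IFNγ. All libraries are of the same cell line. The labels do not say whether the libraries of a group were separate cultures. All 44 libraries were fitted together, so p-values measure only the spread between libraries within the 11 groups.

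IFNγ is the type II interferon, made mainly by T cells and natural killer cells. Its receptor, IFNGR1 with IFNGR2, activates the kinases JAK1 and JAK2 and, through them, transcription factors of the STAT family. These bind GAS elements in promoters and induce IRF1 and other transcription factors, which then act on ISRE elements in a further wave of genes. In fibroblasts and other non-immune cells, IFNγ is best known for raising antigen presentation, CXCR3 ligand chemokines, guanylate-binding proteins and the tryptophan-degrading enzyme IDO1. IFNα, a type I interferon, signals through a different receptor and mainly through a complex with STAT2 and IRF9 that binds ISRE elements.

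The 8 libraries held 1125442 to 1725354 estimated counts, and 9513 genes passed the filter on low counts. Levels are CPM, counts scaled to the normalized library size, given as mean ± SD of 4 libraries, and per-library values are in the order of replicates 1 to 4. CPM is not divided by transcript length, so levels are compared between libraries and not between genes. All 12 fibroblast markers had counts in every library, with summed levels of 29500 to 41600 CPM unstimulated and 17500 to 34700 CPM with IFNγ. Of 14 leukocyte markers only CD68 passed the filter, at 2.87 ± 3.32 CPM unstimulated and 13.9 ± 5.10 CPM with IFNγ, and PTPRC, which encodes CD45, had at most 1 count in any of these libraries. Summed leukocyte markers ranged from 2.11 to 9.79 CPM unstimulated and from 8.31 to 20.6 CPM with IFNγ, and their part in the results was not tested. Summed endothelial markers stayed at or below 5.83 CPM, and EPCAM and CDH1, defining markers of epithelium, were at 0 counts. The 9 epithelial markers summed to 6.83 to 18.2 CPM unstimulated and 2.49 to 21.4 CPM with IFNγ. Those counts came from VIL1, which encodes villin and did not pass (log2 fold change -0.18, adjusted p = 0.909), and in IFNγ replicate 2 from 3 counts of KRT19. In a bulk culture, fewer expressing cells and less RNA per cell cannot be told apart. Among the IFNγ libraries, replicate 2 stood farthest from the others, with a chi-square per degree of freedom of 33.44 against replicate 4. In the controls it was replicate 1, with 11.15, 25.22 and 16.00 against replicates 2, 3 and 4. The other control pairs had 5.57 to 9.71. ACTB, the cytoskeletal β-actin, had 4628, 9899, 1882 and 1385 CPM in the IFNγ libraries, so that replicates 3 and 4 lay near each other and far below replicate 2. ACTB did not pass with all libraries (log2 fold change -0.51 ± 0.37, adjusted p = 0.442). ACTB passed without IFNγ replicate 2 (log2 -1.25). ACTB passed without a filter on low counts (log2 -0.51, adjusted p 0.0355).

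IFNγ raised 228 genes and lowered 108 at a Benjamini-Hochberg adjusted p under 0.05 (edgeR quasi-likelihood test) and a log2 fold change beyond 1.5 in either direction, which is 2.40% and 1.14% of the genes tested. At the adjusted p alone, 525 genes (5.52%) were higher and 488 (5.13%) lower. These shares are the background for the gene lists below, in which a member is counted as changed at the adjusted p alone. The median log2 fold change of all tested genes was -0.01. All 4 IFNγ libraries lay above all 4 unstimulated libraries for 200 of the 228 raised genes, and for 577 of all tested genes (6.07%). They lay below for 86 of the 108 lowered genes and for 551 of all tested genes (5.79%). Raised genes took 1.01% to 1.41% of all counts in unstimulated libraries and 7.87% to 11.0% with IFNγ. Lowered genes took 0.646% to 0.958% of counts before and 0.151% to 0.298% after. Of the raised genes, 41 had at most 3 counts in every unstimulated library, and 15 lowered genes had at most 3 counts in every IFNγ library. For such genes a fold is given as a lower bound against 3 counts, which correspond to 1.95 CPM in the unstimulated group and 2.37 CPM in the IFNγ group. The numbers of calls depended on single libraries. Without IFNγ replicate 2, 163 genes were lowered and 271 raised, including 85 of the 108 and 220 of the 228. Without IFNγ replicate 4, 670 genes passed at the adjusted p alone in place of 1013.

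**Figure D1:**
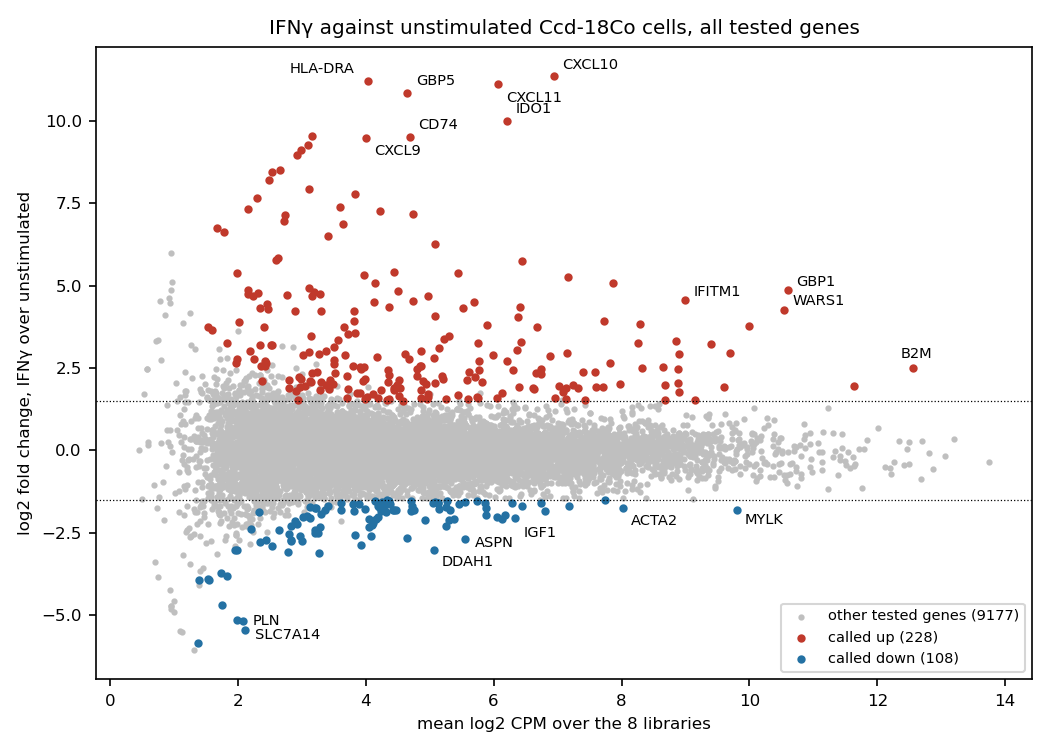
Log2 fold change, IFNγ over unstimulated (y axis), against mean log2 CPM over the 8 libraries (x axis) for the 9513 tested genes, with the 228 raised genes in red, the 108 lowered genes in blue and all others in grey. Dotted lines mark log2 1.5 in both directions, rises reach farther from 0 than falls, and the fold changes of genes at or near 0 counts in a group are fitted values rather than measured ratios.

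Promoter windows of 300 bases, from 250 before to 50 after the RefSeq start (GRCh38.p14, the first start listed for a symbol), were searched for TTCNNNGAA, the letters of a GAS element, and for the letters of an ISRE core, GAAA, any 2 bases and GAAA, or on the other strand TTTC, any 2 bases and TTTC. Both strands were covered, since TTCNNNGAA reads alike on each, and the kinds of motif may overlap. GAS-like letters stood in 26 of 168 raised genes with a window (15.5%), in 4 of 86 lowered genes (4.65%) and in 552 of 7824 tested genes (7.06%). ISRE-like letters stood in 45 raised genes (26.8%), in 2 lowered genes (2.33%) and in 239 tested genes (3.05%). Both kinds stood in 11 raised genes (6.55%), in 0 lowered genes and in 35 tested genes (0.447%). A match is a description of letters and not evidence of a bound factor, and a window without a match leaves binding elsewhere unaddressed. The 250 bases before the start are shown for 6 raised genes of the programs described next, all with a match, unlike most raised genes. CD74, HLA-DMA, HLA-DMB, WARS1, PSMB8 and PSMB9, of the same programs, had windows without a match. The 6 are on the minus strand and written 5′ to 3′ toward the start, with GAS-like or ISRE-like letters in capitals. IRF1, at chr5:132490774-132491023, has GAS-like letters ending 115 bases before the start. CXCL9 (chr4:76007510-76007759) and CXCL10 (chr4:76023498-76023747) have ISRE-like letters ending 161 and 211 bases before it, and CXCL11 (chr4:76036071-76036320) has GAS-like letters ending 231 bases before it. GBP3 (chr1:89022867-89023116) has GAS-like letters 6 bases before the start, and PSMB10 (chr16:67936851-67937100) has ISRE-like letters 11 bases before it. In the full windows of 300 bases, GBP3 has 1 GAS-like and 1 ISRE-like match and CXCL11 has 2 GAS-like matches.
IRF1: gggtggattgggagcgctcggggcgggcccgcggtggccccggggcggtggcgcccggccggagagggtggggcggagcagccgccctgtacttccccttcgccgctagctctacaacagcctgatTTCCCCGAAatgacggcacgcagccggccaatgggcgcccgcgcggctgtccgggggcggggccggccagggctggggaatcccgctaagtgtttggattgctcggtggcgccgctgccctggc
CXCL9: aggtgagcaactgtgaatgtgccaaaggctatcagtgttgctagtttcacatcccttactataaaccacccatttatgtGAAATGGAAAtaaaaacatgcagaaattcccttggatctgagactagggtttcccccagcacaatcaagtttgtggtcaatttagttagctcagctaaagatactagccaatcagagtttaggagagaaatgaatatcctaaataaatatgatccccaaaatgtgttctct
CXCL10: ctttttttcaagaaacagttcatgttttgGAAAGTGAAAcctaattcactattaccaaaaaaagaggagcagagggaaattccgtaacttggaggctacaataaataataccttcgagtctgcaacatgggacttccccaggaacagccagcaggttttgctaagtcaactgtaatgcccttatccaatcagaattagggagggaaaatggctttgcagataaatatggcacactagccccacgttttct
CXCL11: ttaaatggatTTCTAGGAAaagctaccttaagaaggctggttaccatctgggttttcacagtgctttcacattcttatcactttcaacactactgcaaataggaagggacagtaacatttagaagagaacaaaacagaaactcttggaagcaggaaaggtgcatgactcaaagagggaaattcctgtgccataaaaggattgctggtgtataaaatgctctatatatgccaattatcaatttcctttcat
GBP3: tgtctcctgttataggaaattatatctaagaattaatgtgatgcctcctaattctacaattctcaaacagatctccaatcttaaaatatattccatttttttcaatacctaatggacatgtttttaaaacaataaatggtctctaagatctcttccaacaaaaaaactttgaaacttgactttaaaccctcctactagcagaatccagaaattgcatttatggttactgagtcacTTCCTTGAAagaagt
PSMB10: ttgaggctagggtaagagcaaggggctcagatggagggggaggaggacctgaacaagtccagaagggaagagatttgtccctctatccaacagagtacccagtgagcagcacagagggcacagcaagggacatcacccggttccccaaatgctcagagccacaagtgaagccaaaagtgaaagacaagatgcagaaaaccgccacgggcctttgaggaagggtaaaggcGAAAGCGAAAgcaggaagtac

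Genes of the signalling chain rose in part. STAT2 rose to 1723, 3282, 1055 and 703 CPM from 219, 459, 631 and 472 CPM. Its groups did not overlap, but replicate 2 of IFNγ was more than 4 times replicate 4 (log2 fold change 1.93 ± 0.30 SE, adjusted p = 6.4e-06, edgeR). JAK2 rose from 12.5 ± 7.64 to 46.7 ± 12.3 CPM (1.88 ± 0.45, adjusted p = 0.00359). STAT3 reached 51.1 ± 11.6 from 26.9 ± 8.74 CPM, with overlapping groups and an adjusted p of 0.0485. IFNGR1, IFNGR2 and JAK1 had log2 fold changes of 0.06, 0.26 and -0.02 with adjusted p of 0.909, 0.719 and 0.973. STAT3 no longer passed when any of IFNγ replicates 1, 3 or 4 or control replicates 2, 3 or 4 was left out (log2 0.79 to 1.01). STAT3 did not pass without a filter on low counts, in a fit of only the 8 libraries compared or with the replicate number as a block (log2 0.91 to 0.94, adjusted p 0.052 to 0.126).

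IRF1, the transcription factor that carries much of the second wave of IFNγ genes, had 8.32, 2.92, 2.11 and 6.83 CPM unstimulated and 115, 115, 130 and 122 CPM with IFNγ. No library of either group came near the other group (4.52 ± 0.52, adjusted p = 7.71e-09). IRF1-AS1, which lies antisense to IRF1, rose as well, from 1.65 ± 1.09 to 33.5 ± 11.0 CPM. Their spans overlap in part, and without known strandedness reads from the overlap may not be told apart. IRF9, the DNA-binding subunit of the type I interferon complex, had 12.2, 8.75, 7.04 and 4.10 CPM unstimulated against 20.3, 12.5, 20.8 and 94.0 CPM. Replicate 4 decided its group mean (2.18 ± 0.62, adjusted p = 0.0146). IRF2 and IRF3 did not pass (adjusted p = 0.169 and 0.325), and IRF8 had 0, 0, 15 and 4 counts with IFNγ and 0 in the controls, too few to be tested. The 4 tested regulatory factors of 9 thus gave 2 that rose, at a median of 1.74. Among 9 feedback inhibitors, 1 of 6 tested genes changed, at a median of 0.70: USP18, which blocks type I receptor signalling, rose from at most 0.979 CPM to 13.6, 9.14, 13.0 and 10.7 CPM, at least 5.93-fold (adjusted p = 0.00071). SOCS1, the inhibitor that classically limits IFNγ signalling, had 3, 1, 0 and 2 counts with IFNγ and 0 in all controls. It did not pass the filter on low counts. SOCS3 reached at most 8.67 CPM (adjusted p = 0.279). IRF9 no longer passed when IFNγ replicate 4 or control replicate 4 was left out (log2 1.15 to 1.99). IRF9 did not pass in a fit of only the 8 libraries compared (log2 2.2, adjusted p 0.0617).

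Guanylate-binding proteins are large GTPases that attack intracellular pathogens and their vacuoles. All 5 tested members of 7 rose, with a median log2 fold change of 5.09. GBP1 went from 230, 341, 319 and 275 CPM to 9675, 9699, 7699 and 6821 CPM, with every IFNγ library above every control (4.86 ± 0.19, adjusted p = 1.78e-24). GBP2 rose from 40.0 ± 9.86 to 1364 ± 187 CPM (5.09 ± 0.31) and GBP3 from 99.8 ± 12.7 to 952 ± 184 CPM (3.26 ± 0.23). GBP5, which promotes inflammasome assembly, had 0, 0.729, 0 and 0 CPM unstimulated and 288, 267, 590 and 648 CPM with IFNγ. It was thus switched from the counting floor to at least 229-fold above it, with replicates 3 and 4 above replicates 1 and 2 (adjusted p = 8.17e-09). GBP4 rose at least 43.6-fold, to 66.3, 42.4, 126 and 107 CPM. GBP6 and GBP7 had at most 8 counts in any of these libraries and were not tested. Reads of this family, GBP1 and its pseudogene GBP1P1 above all, may be split between near-identical copies.

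**Figure D2:**
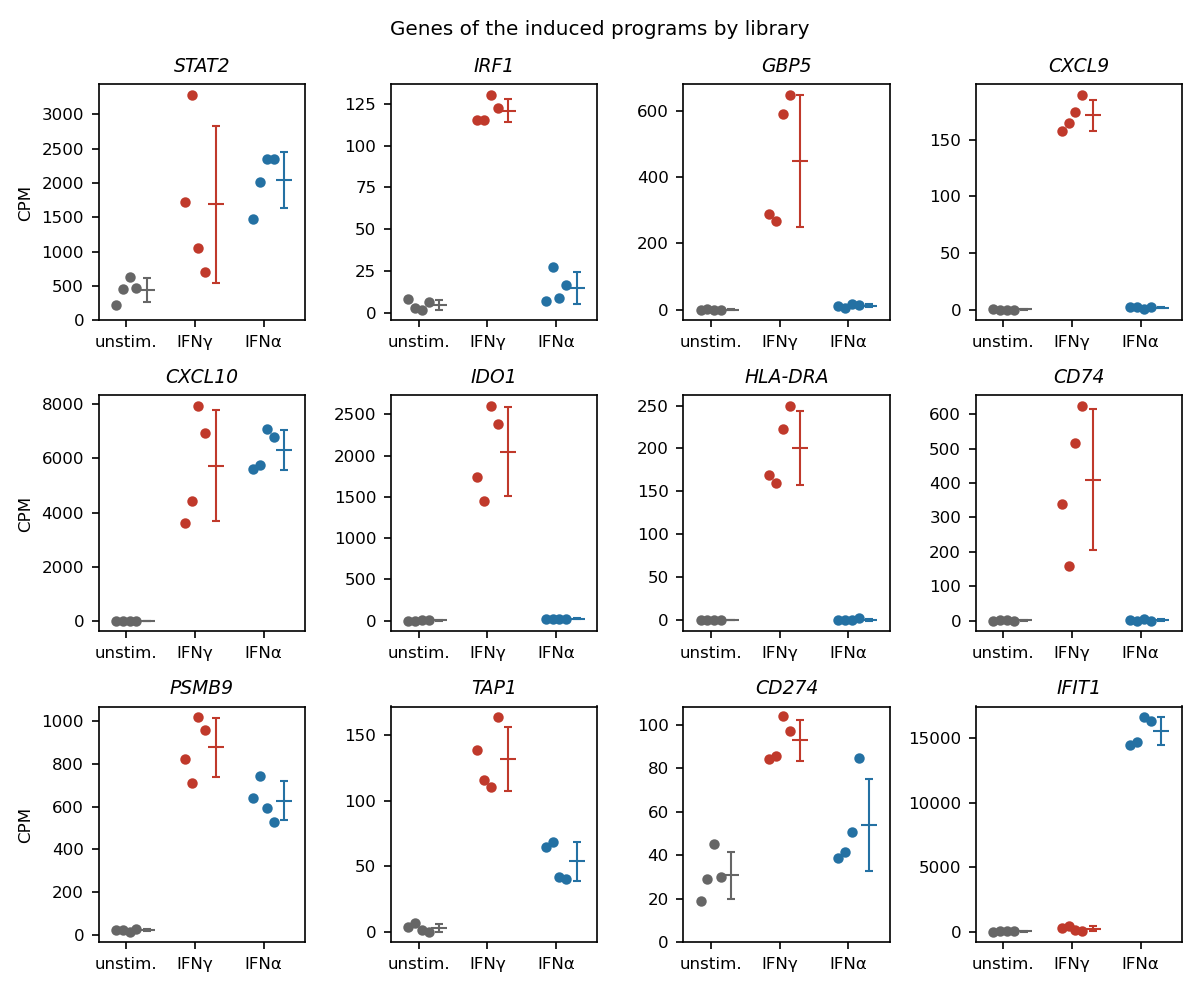
CPM (y axis, each panel on its own scale) of 12 genes of the induced programs in the 4 unstimulated, 4 IFNγ and 4 IFNα libraries. Points are libraries in the order of replicates, and the bar to their right is the mean with SD. IRF1, GBP5, CXCL9, IDO1, HLA-DRA and CD74 are high with IFNγ and low with IFNα, CXCL10 and PSMB9 are high with both interferons, and IFIT1 is far higher with IFNα.

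MHC class I presentation, by which cells show cytosolic peptides to CD8 T cells, rose in 12 of 16 tested genes of 17 and fell in 0, with a median log2 fold change of 2.6. B2M, the invariant light chain, had 2670, 2403, 2481 and 2672 CPM unstimulated and 13288, 14386, 15960 and 13854 CPM with IFNγ, without overlap (2.49 ± 0.13, adjusted p = 3.43e-19). HLA-B went from 26.9, 25.5, 27.4 and 27.3 CPM to 285, 233, 316 and 223 CPM (3.30 ± 0.20). HLA-C (2.72 ± 0.24), HLA-E (3.75 ± 0.38) and HLA-F (4.46 ± 0.96) rose too, although reads can be shared among these paralogs. TAP1, a subunit of the peptide transporter, had 3.92, 6.56, 1.41 and 0 CPM unstimulated and 139, 115, 110 and 164 CPM with IFNγ. The groups lay far apart (5.42 ± 0.62, adjusted p = 6.31e-09). TAP2, the bridging factor TAPBP, the peptide-trimming ERAP1 and ERAP2, and NLRC5, the transactivator of class I genes, rose by log2 1.87 to 4.22. The general endoplasmic reticulum chaperones CALR, CANX and PDIA3 did not pass (adjusted p = 0.382 to 0.741), and TAPBPL did not either (adjusted p = 0.426). ERAP1 no longer passed when any of IFNγ replicates 1 or 4 or control replicates 2, 3 or 4 was left out (log2 1.67 to 1.77). ERAP1 did not pass in a fit of only the 8 libraries compared (log2 1.89, adjusted p 0.0907).

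The immunoproteasome replaces constitutive catalytic subunits and changes the peptides that are cut. All 5 of its genes rose, with a median of 3.38. PSMB9 went from 23.0, 24.8, 15.5 and 28.7 CPM to 824, 710, 1017 and 956 CPM (5.25 ± 0.37, adjusted p = 2.93e-15), and its gene overlaps TAP1. PSMB8 rose from 10.1 ± 5.0 to 207 ± 56.2 CPM (4.33 ± 0.40) and PSMB10 from 11.1 ± 4.55 to 118 ± 28.2 CPM (3.38 ± 0.41). The activator subunits PSME1 (2.38 ± 0.18) and PSME2 (3.31 ± 0.16) rose as well. Of the 3 constitutive counterparts, at a median of 0.49, 2 rose: PSMB6 rose by 0.46 ± 0.15, PSMB7 by 0.69 ± 0.20, and PSMB5 stood at 0.49 ± 0.21 without passing (adjusted p = 0.135). PSMB6 no longer passed when any of IFNγ replicates 1, 3 or 4 or control replicates 1, 2 or 4 was left out (log2 0.43 to 0.50). PSMB7 no longer passed when any of IFNγ replicates 3 or 4 or control replicate 2 was left out (log2 0.53 to 0.67). PSMB5 passed without IFNγ replicate 2 (log2 0.71). PSMB6 did not pass without a filter on low counts or in a fit of only the 8 libraries compared (log2 0.46 to 0.48, adjusted p 0.143 to 0.166). PSMB7 did not pass in a fit of only the 8 libraries compared (log2 0.71, adjusted p 0.113).

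MHC class II presentation, which shows extracellular antigen to CD4 T cells and is best known from professional antigen-presenting cells, rose in 7 of 10 tested genes of 19. The fitted median was 6.36 on the log2 scale, and 4.37 with the 5 genes at the counting floor set to their bound. HLA-DRA (chromosome 6, 32439878 to 32445046, GENCODE on GRCh38) was at 0 in all 4 unstimulated libraries and at 169, 160, 223 and 249 CPM with IFNγ. It was measured in every IFNγ library and in no control, a rise of at least 103-fold (adjusted p = 1.98e-08). CD74, the invariant chain that escorts class II molecules, went from 0, 0.729, 1.41 and 0 CPM to 340, 158, 517 and 623 CPM, at least 209-fold, with replicate 2 the lowest. The peptide-exchange factors HLA-DMA and HLA-DMB rose at least 46.1-fold and 15.7-fold. The lysosomal enzymes IFI30 and CTSS, which prepare antigen, rose from 0 to 52.9 ± 11.4 CPM and from 1.93 ± 1.14 to 80.4 ± 29.8 CPM. HLA-DPB1, the β chain of HLA-DP, rose from 5.28 ± 1.85 to 25.6 ± 6.73 CPM (2.26 ± 0.47). HLA-DRA did not pass in the DESeq2 Wald test (fitted log2 10.77, adjusted p 0.313).

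Other class II genes were too low to be tested with all libraries, and several had raw counts with IFNγ and 0 without it. Without IFNγ replicate 2, 13 members of the list were tested and 8 rose. HLA-DRB1 had 0 counts in all controls and 22, 7, 18 and 30 with IFNγ, HLA-DPA1 had 0 and then 5, 3, 43 and 18, and HLA-DQA1 had 0 and then 1, 0, 11 and 8. CIITA, the master transactivator of class II genes, had 5, 8, 7 and 3 counts unstimulated and 9, 4, 8 and 13 with IFNγ. Those ranges of raw counts, not scaled to library size, overlap. CIITA did not pass the filter, so a difference was not tested. RFX5 and RFXANK, which act with CIITA, did not pass (adjusted p = 0.754 and 0.336).

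CXCR3 ligands, the chemokines that draw activated T cells, were at or near 0 before IFNγ and abundant after it. CXCL10 (chromosome 4, 76021118 to 76023497) had 0, 0, 2.81 and 6.15 CPM unstimulated and 3598, 4442, 7932 and 6947 CPM with IFNγ. The lowest IFNγ library was far above the highest control (11.36 ± 0.80, adjusted p = 3.59e-15). CXCL11 went from 0, 0, 4.22 and 0 CPM to 1917, 2390, 2594 and 2416 CPM (11.12 ± 0.89, adjusted p = 6.45e-13). CXCL9 went from at most 1 count to 158, 164, 174 and 189 CPM, at least 87.8-fold (adjusted p = 3.37e-07). All 3 members of the list therefore rose, from near or at the counting floor.

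Of 9 tested members among 12 CC and other chemokines, 4 rose: CCL2, CCL7, CCL8 and CCL11, which attract monocytes and eosinophils. The median was 1.77, and 1.80 with its floor gene at the bound. CCL2 had 204, 248, 331 and 439 CPM unstimulated and 1922, 2245, 2861 and 2474 CPM with IFNγ (2.96 ± 0.26, adjusted p = 4.69e-12). CCL8 rose from 0.979, 0, 9.15 and 6.83 CPM to 174, 173, 501 and 425 CPM (6.26 ± 0.59), CCL7 by 4.52 ± 0.53 and CCL11 by 1.77 ± 0.31. CXCL12, the homeostatic ligand of CXCR4, did not pass (-0.65 ± 0.40, adjusted p = 0.358). The neutrophil-attracting ELR-positive CXC chemokines gave 0 changed genes of 6, at a median of 0.73. CXCL8 among them had 23.0, 19.7, 85.1 and 554 CPM unstimulated and 237, 460, 557 and 525 CPM with IFNγ. Control replicate 4 was as high as the IFNγ libraries, and the groups overlapped (1.39 ± 0.76, adjusted p = 0.272). CXCL2 and CXCL3 were also highest in control replicate 4 among the controls, at 25.3 and 107 CPM. Without IFNγ replicate 2, 1 of the 6 changed. CXCL8 passed without control replicate 4 (log2 3.42). CXCL2 passed without control replicate 4, where the other controls had at most 1 count (fitted log2 4.74). CXCL3 passed when IFNγ replicate 2 or control replicate 4 was left out (log2 1.68 to 3.29). CXCL8 and CXCL3 passed without a filter on low counts and with the replicate number as a block (log2 1.41 to 2.05 and 1.32 to 1.49, adjusted p 3.74e-14 to 0.0314).

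RNA of genes at the entry of tryptophan metabolism rose. IDO1, the enzyme that starts the kynurenine pathway and depletes tryptophan, had 0, 0, 3.52 and 4.78 CPM unstimulated and 1747, 1450, 2598 and 2387 CPM with IFNγ, again without overlap (9.99 ± 0.75, adjusted p = 3.11e-13). TDO2, which catalyses the same step, rose at least 7.81-fold, to 4.52, 8.31, 26.9 and 21.4 CPM. WARS1, the tryptophanyl-tRNA synthetase, went from 453, 443, 277 and 227 CPM to 7428, 4329, 7324 and 7927 CPM (4.27 ± 0.27, adjusted p = 5.22e-17). The downstream genes KYNU (0.96 ± 0.47, adjusted p = 0.209), KMO (adjusted p = 0.565), AFMID (0.595) and KYAT3 (0.905) did not pass, so that 3 of 7 tested members of 10 changed, at a median of 0.96.

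Checkpoint ligands, costimulatory and adhesion molecules and a few related cytokine genes, taken as 1 list, rose in 8 of 9 tested members of 18, at a median of 1.96. CD274, which encodes PD-L1, had 19.1, 29.2, 45.0 and 30.1 CPM unstimulated and 84.4, 85.6, 104 and 96.8 CPM with IFNγ, without overlap (1.59 ± 0.41, adjusted p = 0.00722). PDCD1LG2, which encodes PD-L2, reached 73.8, 9.14, 71.1 and 81.9 CPM from 24.0, 24.8, 12.7 and 18.4 CPM. Replicate 2 lay below every control while the other IFNγ libraries lay above them (1.56 ± 0.40, adjusted p = 0.00595). ICAM1, the ligand of leukocyte integrins, was at 0 in all controls and at 19.6, 5.81, 51.1 and 42.7 CPM with IFNγ, at least 15.3-fold. VCAM1 rose by 1.28 ± 0.29, TNFSF13B, which encodes the B-cell survival factor BAFF, by 4.68 ± 0.51, and TNFSF10, which encodes TRAIL, at least 15.4-fold. IL15RA rose by 2.80 ± 0.39 and the IL-18 antagonist IL18BP by 1.96 ± 0.65, while IL15 itself did not pass (1.46 ± 0.56, adjusted p = 0.0851). CD80, CD86, CD40 and CD276 had at most 4 counts in any of these libraries. IL18BP no longer passed when any of IFNγ replicates 1, 2, 3 or 4 or control replicates 1, 2, 3 or 4 was left out (log2 1.74 to 2.16). PDCD1LG2 did not pass in a fit of only the 8 libraries compared (log2 1.58, adjusted p 0.0971). IL18BP did not pass without a filter on low counts (log2 1.96, adjusted p 0.206). IL15 passed in the DESeq2 Wald test (log2 1.52, adjusted p 0.041).

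Antiviral effectors, the classic products of type I interferon, rose in 24 of 36 tested genes of 37 and fell in 0. The fitted median was 3.40, and 2.27 with the 11 genes at the counting floor set to their bound. IFIT3 went from 11.8, 16.0, 14.1 and 4.78 CPM to 618, 699, 653 and 540 CPM (5.74 ± 0.50, adjusted p = 3.32e-12) and IFITM1 from 106 ± 28.3 to 2508 ± 341 CPM (4.57 ± 0.30). IFIT1 had 44.6, 88.9, 85.1 and 67.6 CPM unstimulated and 340, 487, 148 and 130 CPM with IFNγ, where replicates 1 and 2 stood well above 3 and 4 (1.96 ± 0.44, adjusted p = 0.0017). IFI44L rose at least 62.8-fold, IFI44 at least 11.8-fold, IFI27 at least 11.3-fold, OAS1 at least 8.91-fold and OAS2 at least 4.27-fold. The cytosolic RNA sensor RIGI rose by 2.22 ± 0.23 and the tetherin BST2 by 6.50 ± 0.73. The RNA-activated kinase EIF2AK2 had 52.4, 74.4, 46.4 and 49.2 CPM unstimulated and 60.3, 65.6, 37.3 and 57.0 CPM with IFNγ, overlapping throughout (-0.01 ± 0.24, adjusted p = 0.987). SAMD9, TRIM5, IFIT5 and IFITM2 did not pass either (adjusted p = 0.306, 0.70, 0.0568 and 0.059). RSAD2, which encodes viperin, had 1, 5, 0 and 1 counts with IFNγ and 0 in the controls (adjusted p = 0.0818), and ISG15 and HERC5 had at most 2 counts in any of the 8 libraries. IFIT5 passed when IFNγ replicate 2 or control replicate 4 was left out (log2 0.82 to 0.91). IFITM2 passed when IFNγ replicates 2 or 4 was left out (log2 0.76 to 0.81). IFIT5 passed in the DESeq2 Wald test, with DESeq2 size factors, without a filter on low counts and with the replicate number as a block (log2 0.77 to 0.81, adjusted p 0.0216 to 0.0393). IFITM2 passed in the DESeq2 Wald test, with DESeq2 size factors and with the replicate number as a block (log2 0.66 to 0.70, adjusted p 0.0322 to 0.0467). RSAD2 passed without a filter on low counts (fitted log2 4.10, adjusted p 0.0232).

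Of the PARP genes linked to interferon, 3 of 6 tested genes of 8 rose, at a median of 1.91. PARP14 went from 82.7 ± 11.4 to 1175 ± 178 CPM (3.83 ± 0.23), PARP9 rose by 2.70 ± 0.33, and its partner DTX3L by 2.47 ± 0.34, with 1345, 2298, 740 and 515 CPM in the IFNγ libraries. Cell-death and cytosolic-sensing genes rose in 6 of 14 tested members of 21, at a median of 0.93. CASP1, the inflammatory caspase, had 116, 151, 252 and 179 CPM unstimulated and 1210, 1469, 1419 and 1247 CPM with IFNγ (2.94 ± 0.19, adjusted p = 4.22e-16). CASP4 (1.01 ± 0.16), the DNA sensor IFI16 (1.33 ± 0.16), XAF1 (3.79 ± 0.32) and the necroptosis effector MLKL (2.74 ± 0.76) rose as well, and the pore-forming GSDMD rose at least 3.36-fold from the counting floor. FAS did not pass (0.60 ± 0.21, adjusted p = 0.0546). All 5 tested apolipoprotein L genes of 6 rose, at a fitted median of 4.28 and at 3.77 with the 3 floor genes at their bound. APOL1, the trypanosome lytic factor, was at 0 in the controls and at 36.2, 25.8, 48.5 and 58.4 CPM with IFNγ, at least 21.6-fold, and APOL2 went from 284 ± 52.7 to 3885 ± 1366 CPM (3.77 ± 0.21). Complement genes moved both ways, with 3 of 14 tested members of 23 higher and 2 lower, at a median of 0.85. SERPING1, the C1 inhibitor (2.77 ± 0.63), and C1S (1.04 ± 0.22) rose, and the membrane regulators CD46 (-0.49 ± 0.16) and CD55 (-0.74 ± 0.23) fell. Without IFNγ replicate 2, 1 complement gene was lower in place of 2. GSDMD no longer passed when any of IFNγ replicates 1 or 4 or control replicates 1, 2 or 4 was left out (fitted log2 2.72 to 3.59). CD46 no longer passed when any of IFNγ replicates 1, 3 or 4 or control replicates 2 or 4 was left out (log2 -0.47 to -0.37). CD55 no longer passed when any of IFNγ replicates 1, 2 or 4 or control replicates 2, 3 or 4 was left out (log2 -0.71 to -0.59). FAS passed when IFNγ replicate 3 or control replicates 3 or 4 was left out (log2 0.70 to 0.77). GSDMD did not pass without a filter on low counts (fitted log2 3.25, adjusted p 0.0762). FAS passed in the DESeq2 Wald test, with DESeq2 size factors and with the replicate number as a block (log2 0.61 to 0.65, adjusted p 0.0219 to 0.0423). C1S and CD55 did not pass in a fit of only the 8 libraries compared (log2 1.06 and -0.71, adjusted p 0.0555 to 0.127). CD46 did not pass with DESeq2 size factors, without a filter on low counts or in a fit of only the 8 libraries compared (log2 -0.49 to -0.45, adjusted p 0.0591 to 0.308).

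Of the 228 raised genes, 98 belonged to a list, and the further genes given here from among the others were chosen after their values were seen. IL33, an alarmin of stromal cells, had 117, 88.9, 172 and 176 CPM unstimulated and 511, 589, 1065 and 995 CPM with IFNγ, without overlap (2.51 ± 0.31, adjusted p = 5.99e-08). IL32, a cytokine induced by IFNγ in many cell types, went from 6.37, 0.729, 2.11 and 0.683 CPM to 102, 73.9, 91.0 and 113 CPM (5.07 ± 0.56). The macrophage growth factor CSF1 rose by 2.13 ± 0.53, the receptor subunit IL18R1 by 2.89 ± 0.70, the hyaluronan-binding TNFAIP6 by 2.38 ± 0.32 and the lymphangiogenic VEGFC by 2.25 ± 0.48. STC1, a secreted glycoprotein hormone, had 337, 557, 4259.6 and 3357 CPM unstimulated and 4811, 8550.5, 11807 and 8068 CPM with IFNγ. Its control replicates 3 and 4 lay far above 1 and 2, and the groups did not overlap (1.97 ± 0.66, adjusted p = 0.0472). The protease inhibitor A2M rose from 2.94, 0.729, 4.22 and 9.56 CPM to 85.1, 52.3, 114 and 112 CPM (4.36 ± 0.74), and the metal-binding MT2A from 238 ± 48.0 to 983 ± 275 CPM (2.05 ± 0.20). The mitochondrial superoxide dismutase SOD2 (1.79 ± 0.28), the crosslinking enzyme TGM2 (2.96 ± 0.24), the aminopeptidase LAP3 (3.92 ± 0.26), the ISG15-conjugating enzyme UBE2L6 (4.04 ± 0.38) and the phospholipase PLAAT4 (7.26 ± 0.78) rose too. STC1 no longer passed when any of IFNγ replicates 3 or 4 or control replicates 1 or 2 was left out (log2 1.61 to 2.00). STC1 did not pass in a fit of only the 8 libraries compared (log2 2.00, adjusted p 0.0998).

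Genes of the inflammatory fibroblast state that the study follows (IF markers, a list taken from the study and so not independent evidence) changed in 1 of 13, all tested, at a median of 0.61. That member was IL11, a fibroblast cytokine of the IL-6 family, with 6.86, 6.56, 4.93 and 7.51 CPM unstimulated and 20.3, 29.9, 83.2 and 54.8 CPM with IFNγ (2.84 ± 0.48, adjusted p = 2.35e-05). Without IFNγ replicate 2, 3 of the 13 rose. NF-κB subunits and feedback genes rose in 2 of 9 tested members of 14, at a median of 0.44 (0.48 with its floor gene at the bound), TNFAIP2 (2.09 ± 0.43) and the inhibitor NFKBIA (0.78 ± 0.26, adjusted p = 0.0497). IL1B, an inflammatory cytokine outside the lists that was chosen after its values were seen, reached 66.3, 10.8, 160 and 137 CPM from 8.32, 1.46, 20.4 and 56.7 CPM, with overlapping groups (2.12 ± 0.64, adjusted p = 0.0232). NFKBIA no longer passed when any of IFNγ replicates 1, 3 or 4 or control replicates 1 or 2 was left out (log2 0.53 to 0.83). IL1B no longer passed when any of IFNγ replicates 3 or 4 or control replicates 1 or 2 was left out (log2 1.77 to 1.90). NFKBIA did not pass in a fit of only the 8 libraries compared (log2 0.80, adjusted p 0.229). IL1B did not pass in the DESeq2 Wald test or in a fit of only the 8 libraries compared (log2 2.15 to 2.16, adjusted p 0.0535 to 0.148).

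Contractile genes, which let a fibroblast pull on its matrix, were among those repressed. Of 20 tested members of 24, 6 fell and 0 rose, at a fitted median of -0.72 and at -0.67 with the 2 floor genes at their bound. ACTA2 (chromosome 10, 88935074 to 88991339), which encodes α-smooth muscle actin and marks myofibroblasts, had 853, 636, 254 and 354 CPM unstimulated and 235, 197, 116 and 74.8 CPM with IFNγ. The highest IFNγ library lay just under the lowest control (-1.75 ± 0.39, adjusted p = 0.00131). ACTA2-AS1, its antisense neighbour, fell from 66.8 ± 23.3 to 10.7 ± 8.26 CPM. Their spans overlap in part, and reads from the overlap may not be told apart without strand. MYLK, the myosin light-chain kinase, had 2134, 2181, 1333 and 1473 CPM unstimulated and 816, 668, 277 and 283 CPM with IFNγ, without overlap (-1.80 ± 0.27, adjusted p = 2.42e-06). PLN, the phospholamban that restrains calcium uptake, had 9.30, 10.9, 9.85 and 10.2 CPM unstimulated and 0, 0, 0.867 and 0 CPM with IFNγ, a fall of at least 4.25-fold (adjusted p = 0.000216). The actin-binding TPM1 (-0.76 ± 0.16) and CALD1 (-0.66 ± 0.14) and the coactivator MYOCD (-1.35 ± 0.43, overlapping groups) fell as well. TAGLN (-0.53 ± 0.31, adjusted p = 0.317), ACTG2 (-0.82 ± 0.29, adjusted p = 0.0636), CNN1 and MYL9 did not pass. MYOCD no longer passed when any of IFNγ replicates 2, 3 or 4 or control replicates 1 or 4 was left out (log2 -1.27 to -0.86). ACTG2 passed when IFNγ replicate 1 or control replicate 3 was left out (log2 -0.99 to -0.97). TPM1, CALD1 and MYOCD did not pass in a fit of only the 8 libraries compared (log2 -0.75, -0.64 and -1.33, adjusted p 0.0609 to 0.234). ACTG2 passed without a filter on low counts and with the replicate number as a block (log2 -0.83 to -0.73, adjusted p 0.000538 to 0.0171).

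**Figure D3:**
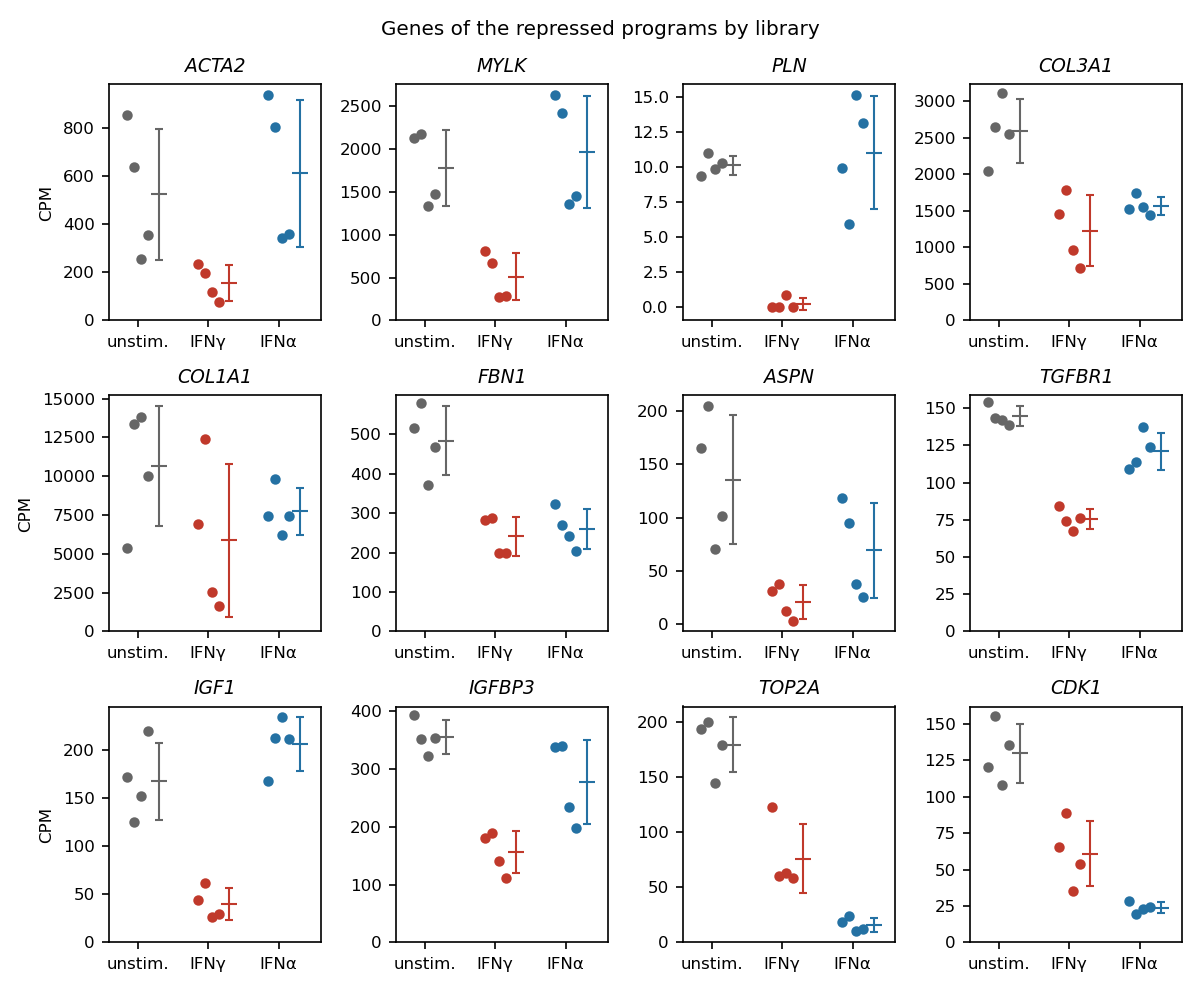
CPM (y axis, each panel on its own scale, starting at or just below 0) of 12 genes of the repressed programs in the 4 unstimulated, 4 IFNγ and 4 IFNα libraries, with points for libraries in the order of replicates and the mean with SD beside them. Among these panels only COL1A1 has IFNγ and unstimulated libraries that overlap, and for ACTA2, MYLK and IGF1 no IFNα library lies below the lowest unstimulated one.

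Matrix genes changed in part. Of 18 tested collagens of 22, 4 fell and 1 rose, at a median of -0.13. COL3A1, a fibrillar collagen, had 2050, 2656, 3113 and 2553 CPM unstimulated and 1457, 1788, 961 and 714 CPM with IFNγ (-1.08 ± 0.19, adjusted p = 4.91e-05). COL1A2 (-0.89 ± 0.20), COL5A2 (-1.16 ± 0.20) and COL14A1 (-0.79 ± 0.21) fell, and the basement-membrane chain COL4A2 rose by 1.02 ± 0.32. COL1A1, which encodes the main chain of type I collagen, had 5404, 13339, 13811 and 10008 CPM unstimulated and 6909, 12379, 2520 and 1628 CPM with IFNγ. IFNγ replicates 1 and 2 lay within the controls and replicates 3 and 4 far below them, and it did not pass (-0.86 ± 0.36, adjusted p = 0.123). Elastic-fibre, proteoglycan and matricellular genes fell in 6 and rose in 1 of 28 tested members of 30, at a median of -0.17. The fibrillin FBN1 had 516, 580, 371 and 469 CPM unstimulated and 282, 287, 199 and 198 CPM with IFNγ (-1.0 ± 0.16, adjusted p = 8.18e-06). ASPN, which binds collagen and TGF-β, went from 165, 204, 71.1 and 102 CPM to 30.9, 38.2, 13.0 and 3.56 CPM (-2.67 ± 0.49, adjusted p = 9.89e-05). THBS2 (-1.34 ± 0.27), SPARC (-0.69 ± 0.19), EFEMP1 (-0.98 ± 0.28) and FBN2 (-1.55 ± 0.53) fell, the microfibril gene MFAP4 rose by 0.86 ± 0.26, and DCN, LUM and FN1 did not pass (adjusted p = 0.0857, 0.0646 and 0.19). The 12 fibroblast markers, which include COL1A2 and COL3A1 as the 2 that fell, had a median of -0.26, and 4 of them fell without IFNγ replicate 2. COL14A1 no longer passed without IFNγ replicate 4 (log2 -0.69). COL4A2 no longer passed when any of IFNγ replicates 1 or 4 or control replicates 2, 3 or 4 was left out (log2 0.93 to 1.03). SPARC no longer passed when any of IFNγ replicates 3 or 4 or control replicates 1 or 2 was left out (log2 -0.63 to -0.56). EFEMP1 no longer passed when any of IFNγ replicates 3 or 4 or control replicates 1 or 2 was left out (log2 -0.90 to -0.80). FBN2 no longer passed when any of IFNγ replicates 3 or 4 or control replicates 1, 2 or 3 was left out (log2 -1.56 to -1.11). MFAP4 no longer passed when any of IFNγ replicate 3 or control replicates 2 or 4 was left out (log2 0.72 to 0.78). COL1A1 passed when IFNγ replicate 2 or control replicate 1 was left out (log2 -1.51 to -1.08). LUM passed when IFNγ replicate 2 or control replicate 1 was left out (log2 -0.56 to -0.51). COL1A2, SPARC, EFEMP1 and MFAP4 did not pass in a fit of only the 8 libraries compared (log2 -0.87, -0.67, -0.97 and 0.88, adjusted p 0.0569 to 0.0919). COL1A1 passed without a filter on low counts and with the replicate number as a block (log2 -1.09 to -0.86, adjusted p 3.84e-06 to 0.0115). FBN2 did not pass in the DESeq2 Wald test, with DESeq2 size factors or in a fit of only the 8 libraries compared (log2 -1.54 to -1.52, adjusted p 0.0519 to 0.295). DCN passed with the replicate number as a block (log2 -0.36, adjusted p 0.043). LUM passed in the DESeq2 Wald test (log2 -0.37, adjusted p 0.048).

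TGF-β ligands and response genes fell in 4 of 18 tested members of 21 and rose in 0, at a median of -0.02, and of -0.05 with its floor gene at the bound. The receptor TGFBR1 had 154, 144, 142 and 139 CPM unstimulated and 84.4, 73.9, 67.6 and 76.2 CPM with IFNγ, tight groups that lay far apart (-0.94 ± 0.18, adjusted p = 0.000325). The coreceptor TGFBR3 (-1.32 ± 0.37), the signal transducer SMAD2 (-0.93 ± 0.26) and the secreted TGFBI (-0.52 ± 0.13) fell, and the target CCN2 did not pass (adjusted p = 0.377). Among matrix metalloproteinases and their inhibitors, TIMP1 rose (0.80 ± 0.21) and TIMP3 fell (-1.44 ± 0.33) of 11 tested members of 14 at a median of 0.48, MMP1 and MMP3 did not pass (adjusted p = 0.248 and 0.106), and without IFNγ replicate 2 the number higher was 4 and the number lower stayed at 1. Without that library, 1 TGF-β gene also rose. TGFBR3 no longer passed when IFNγ replicate 4 or control replicate 2 was left out (log2 -1.06 to -0.98). SMAD2 no longer passed when any of IFNγ replicate 4 or control replicates 2 or 3 was left out (log2 -0.83 to -0.72). TGFBI no longer passed without IFNγ replicate 4 (log2 -0.43). TIMP1 no longer passed without IFNγ replicate 4 (log2 0.61). MMP3 passed when IFNγ replicates 1 or 2 was left out (log2 1.01 to 1.11). TGFBR3, SMAD2 and TIMP1 did not pass in a fit of only the 8 libraries compared (log2 -1.30, -0.90 and 0.82, adjusted p 0.0827 to 0.138). TGFBI did not pass without a filter on low counts or in a fit of only the 8 libraries compared (log2 -0.52 to -0.50, adjusted p 0.068 to 0.142). MMP3 passed in the DESeq2 Wald test and without a filter on low counts (log2 0.80 to 0.84, adjusted p 0.00013 to 0.0472).

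Cell-cycle and mitosis genes fell in 6 of 22 tested members of 27 and rose in 1, at a median of -0.60. TOP2A, the topoisomerase of dividing cells, had 194, 200, 144 and 179 CPM unstimulated and 123, 59.8, 62.4 and 57.7 CPM with IFNγ. Replicate 1 stood above the other IFNγ libraries but below every control (-1.24 ± 0.29, adjusted p = 0.00259). MKI67, which encodes the proliferation antigen Ki-67, went from 27.9, 29.2, 30.3 and 33.5 CPM to 11.3, 8.31, 13.0 and 8.54 CPM (-1.55 ± 0.45, adjusted p = 0.0186). CDK1 (-1.09 ± 0.26), CCNB1 (-1.02 ± 0.32), BIRC5 (-0.96 ± 0.26) and CENPF (-1.54 ± 0.32) fell, all kinase, cyclin or mitotic genes, whereas the G1 cyclin CCND1 rose (1.19 ± 0.37, overlapping groups). Among genes outside the lists, chosen after their values were seen, the cytokinesis factor ANLN fell from 83.7 ± 21.4 to 17.0 ± 7.18 CPM (-2.28 ± 0.35), as did the kinesin KIF14 (-2.31 ± 0.63) and ARHGAP11A (-2.41 ± 0.69). Without IFNγ replicate 2, 5 members of the list fell and 2 rose. The cells had been starved of serum, and both groups still expressed these genes. MKI67 no longer passed without IFNγ replicate 4 (log2 -1.45). CCNB1 no longer passed when any of IFNγ replicates 1, 2 or 3 or control replicates 2 or 4 was left out (log2 -1.02 to -0.86). BIRC5 no longer passed without IFNγ replicate 4 (log2 -0.81). CCND1 no longer passed when any of IFNγ replicates 3 or 4 or control replicates 2, 3 or 4 was left out (log2 0.92 to 1.23). KIF14 no longer passed without IFNγ replicate 3 (log2 -2.06). ARHGAP11A no longer passed without IFNγ replicate 4 (log2 -2.22). CCND1 did not pass in a fit of only the 8 libraries compared (log2 1.21, adjusted p 0.127).

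Growth-factor and morphogen genes moved in small numbers. IGF1 (chromosome 12, 102395874 to 102481744), a growth factor that stromal cells supply to epithelium, had 172, 125, 153 and 221 CPM unstimulated and 43.7, 62.3, 26.0 and 29.2 CPM with IFNγ, without overlap (-2.06 ± 0.24, adjusted p = 6.53e-09). IGFBP3, its main carrier, went from 394, 353, 323 and 354 CPM to 182, 190, 141 and 112 CPM (-1.19 ± 0.22). These were the 2 changed genes of 8 tested in the IGF list of 11, at a median of -0.08. Of 8 tested Wnt ligands and modulators of 17, WNT2B fell (-1.53 ± 0.36) and the Wnt agonist RSPO3 rose (2.57 ± 0.76), at a fitted median of -0.23 (-0.00 with the 1 member at the floor set to its bound). The BMP list gave 4 higher and 1 lower of 13 tested members of 15, at a median of 0.74 (0.86 with its floor gene at the bound). The activin antagonist FST went from 35.3, 51.0, 59.8 and 57.4 CPM to 154, 187, 179 and 234 CPM (1.89 ± 0.24, adjusted p = 6.51e-08), and ID1 (2.48 ± 0.39), ID2 (0.74 ± 0.24) and ID3 (1.89 ± 0.29), inhibitors of basic helix-loop-helix factors, rose. FSTL1 fell (-0.53 ± 0.14), and without IFNγ replicate 2 no member of the BMP list fell. Of 18 tested cholesterol genes, 1 changed, HSD17B7 (1.87 ± 0.51), at a median of -0.28 and near the background share of all genes, and without IFNγ replicate 2 another 2 fell. RSPO3 no longer passed when any of IFNγ replicate 3 or control replicates 1, 2 or 3 was left out (log2 2.10 to 2.33). ID2 no longer passed when any of IFNγ replicate 4 or control replicates 1 or 2 was left out (log2 0.60 to 0.72). FSTL1 no longer passed when any of IFNγ replicates 2 or 3 or control replicates 1 or 2 was left out (log2 -0.46 to -0.41). ID2 and FSTL1 did not pass without a filter on low counts or in a fit of only the 8 libraries compared (log2 0.75 to 0.76 and -0.53 to -0.51, adjusted p 0.0744 to 0.201).

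Most lowered genes, 99 of 108, stood in no list. Those with the largest falls under the naming rule, beside PLN and DDAH1, included SLC7A14, GRIK2, ZNF789, MPZL3, RNF128, CMKLR2, OTUD3, E2F7, ALKAL1, STON1, KLF12 and AKR1C3, and most of them were low. SLC7A14 had 34, 27, 9 and 9 counts unstimulated and 1, 0, 0 and 0 with IFNγ, a fall of at least 5.14-fold. GRIK2, a glutamate receptor subunit, fell at least 4.20-fold and the cell-cycle repressor E2F7 at least 5.10-fold. DDAH1, which degrades the nitric oxide synthase inhibitor ADMA, had 134, 171, 210 and 113 CPM unstimulated and 24.9, 0, 54.6 and 0 CPM with IFNγ. Replicates 2 and 4 were at 0 while replicates 1 and 3 were not (-3.01 ± 0.73, adjusted p = 0.00402). ALKAL1, a ligand of the ALK receptor, fell from 39.6 ± 6.29 to 5.32 ± 4.45 CPM (-2.87 ± 0.50). Further lowered genes, chosen after their values were seen, were better measured. The tetraspanin TSPAN2 had 228, 269, 281 and 255 CPM unstimulated and 74.6, 88.9, 82.4 and 73.3 CPM with IFNγ (-1.69 ± 0.16, adjusted p = 4.36e-11), and N-cadherin, encoded by CDH2, went from 65.1, 73.6, 64.7 and 84.0 CPM to 19.6, 19.9, 23.4 and 19.9 CPM (-1.79 ± 0.26). Both showed tight groups without overlap. TSLP, an epithelial and stromal alarmin, had 9.79, 18.2, 17.6 and 32.8 CPM unstimulated and 6.03, 1.66, 4.33 and 1.42 CPM with IFNγ (-2.51 ± 0.56). The cystine transporter SLC7A11 (-1.84 ± 0.22), the serine synthesis enzyme PSAT1 (-1.94 ± 0.32), the retinal dehydrogenase ALDH1A1 (-2.07 ± 0.44), the cyclic GMP phosphodiesterase PDE5A (-2.09 ± 0.35) and the R-spondin receptor LGR4 (-1.81 ± 0.38) fell too. ZNF789 no longer passed when any of IFNγ replicates 1, 3 or 4 or control replicate 4 was left out (fitted log2 -3.79 to -3.58). E2F7 no longer passed without IFNγ replicate 3 (fitted log2 -2.49). KLF12 no longer passed without IFNγ replicate 4 (log2 -2.29). AKR1C3 no longer passed without IFNγ replicate 4 (log2 -2.25). For MPZL3, RNF128, CMKLR2 and OTUD3 the call was likewise lost without any of 7, 6, 6 and 3 single libraries, respectively, among them IFNγ replicate 4. DDAH1, CMKLR2 and AKR1C3 did not pass in a fit of only the 8 libraries compared (log2 -2.98, -3.07 and -2.67, adjusted p 0.0543 to 0.0764). MPZL3 did not pass with DESeq2 size factors or with the replicate number as a block (fitted log2 -3.93 to -3.88, adjusted p 0.0506 to 0.0526). RNF128 did not pass with DESeq2 size factors, with a minimum of 10 counts in 4 libraries or with the replicate number as a block (fitted log2 -3.79 to -3.76, adjusted p 0.0507 to 0.054).

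Among the 15 largest rises, those not described above were UBD, OR2I1P, ACKR4 and APOL4. UBD, a ubiquitin-like modifier, was at 0 in the controls and at 27.9, 48.2, 88.4 and 88.3 CPM with IFNγ, at least 32.3-fold. OR2I1P, an olfactory receptor gene on the opposite strand, rose at least 24.2-fold. Its span overlaps that of UBD in part, and without known strandedness reads from the overlap may not be told apart. ACKR4, a scavenging chemokine receptor, rose at least 12.8-fold and APOL4 at least 29.7-fold.

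**Figure D4:**
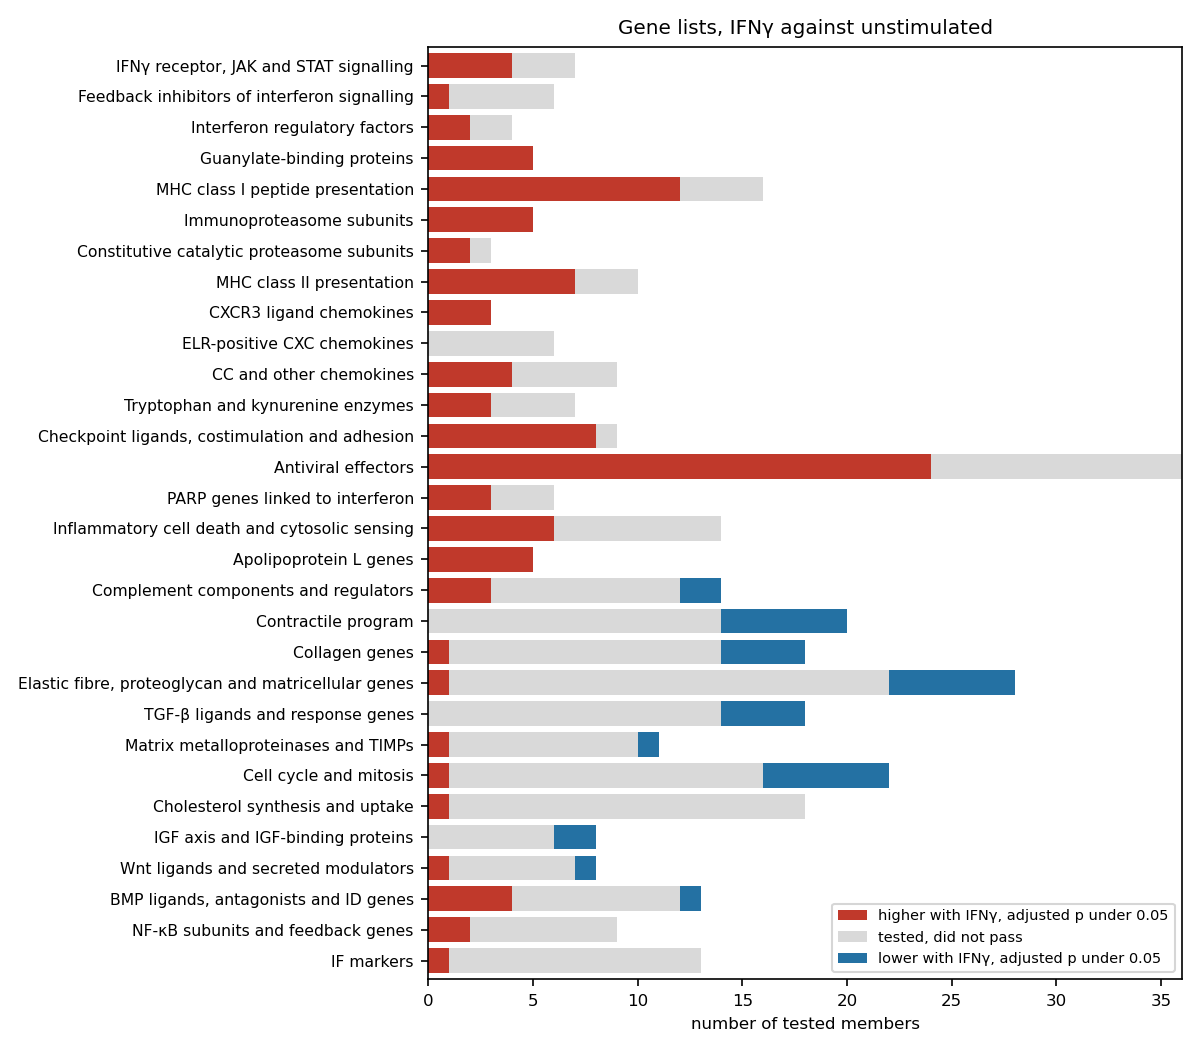
Number of tested members (x axis) of 30 gene lists (rows) that were higher with IFNγ (red), lower (blue) or did not pass (grey) at an adjusted p under 0.05. Red fills the rows of guanylate-binding proteins, immunoproteasome subunits, CXCR3 ligands and apolipoprotein L genes, and blue appears mainly in the contractile, matrix, TGF-β and cell-cycle rows.

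Some raised genes lay in runs along the chromosomes. Joining raised genes whose starts were at most 1000000 bases apart (GENCODE release 44 on GRCh38, which placed all 228) gave 6 runs of at least 4, which held 37 raised genes, and the other 191 lay in none. On chromosome 6, starts between 32439878 and 33299694 held 10 raised genes of 16 tested, from HLA-DRA through TAP2, PSMB8, PSMB9, TAP1, HLA-DMB, HLA-DMA and HLA-DPB1 to TAPBP. A second stretch of the same chromosome, from 29550407 to 31353872, held 8 of 29. The GBP run on chromosome 1 (89006679 to 89407679) held 6 of 6, the APOL run on chromosome 22 (35648446 to 36253071) 5 of 6, and the CCL2, CCL7, CCL11 and CCL8 run on chromosome 17 (34255274 to 34319435) 4 of 4. On chromosome 9, JAK2, CD274, PDCD1LG2 and IL33 were 4 of 8 tested genes with starts between 4984390 and 6215786. These are positions of genes chosen for having risen, given as a description.

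IFNα at 10 ng/ml was the cytokine closest in kind, and its 4 libraries were compared directly with the IFNγ libraries in the same model. The contrast leaves out the coefficient of the unstimulated group. The unstimulated libraries still enter the shared filter, scaling and estimate of spread. With IFNγ, 101 genes (1.06%) were higher and 160 (1.68%) lower at both thresholds, and 424 (4.46%) were higher and 469 (4.93%) lower at the adjusted p alone. MHC class II genes were higher with IFNγ in 5 and lower in 1 of 10 tested members, guanylate-binding proteins in 5 of 5 and immunoproteasome subunits in 4 of 5. HLA-DRA had 0, 0, 0 and 2.49 CPM with IFNα against 169 to 249 CPM with IFNγ (log2 difference 8.10 ± 0.79, adjusted p = 1.21e-07), and HLA-DMB was at 0 in all IFNα libraries, at least 15.6-fold lower. CD74 (7.90 ± 0.73) and HLA-DMA (5.22 ± 0.90) were likewise higher with IFNγ. The class II list member that was lower was LGMN, a lysosomal protease, with 374, 272, 174 and 126 CPM with IFNα against 26.4 to 63.3 CPM with IFNγ (-2.39 ± 0.59, adjusted p = 0.00556). IDO1 had 16.5, 25.7, 23.8 and 25.5 CPM with IFNα (6.48 ± 0.58, adjusted p = 1.39e-10), CXCL9 2.2, 1.98, 0.794 and 1.87 CPM (6.54 ± 0.88), and IRF1 7.16, 27.7, 8.74 and 16.8 CPM (2.99 ± 0.47). GBP5 (5.28 ± 0.65), WARS1 (2.14 ± 0.24), APOL4 (at least 29.4-fold) and A2M (4.89 ± 0.77) were also higher with IFNγ. Of the genes named by the rule, CLIC2 and TEX29 were at 0 in all IFNα libraries and at least 13.4-fold and 5.05-fold higher with IFNγ. TEX29 had not passed against the unstimulated cells (adjusted p = 0.0884). HLA-DRA, CXCL9 and GBP5 did not pass in the DESeq2 Wald test (log2 8.37, 6.67 and 5.31, adjusted p 0.147 to 0.489).

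Several other induced genes did not pass in the direct contrast. CXCL10 had a log2 difference of -0.14 (adjusted p = 0.913), CXCL11 of -0.74 (0.43), PSMB9 of 0.49 (0.37), CD274 of 0.78 (0.26) and B2M of -0.02 (0.96). None of these p-values shows equal levels. Of 16 tested class I genes, 0 were higher with IFNγ and 1, HLA-B, was lower (-0.60, adjusted p = 0.019). HLA-B no longer passed when any of IFNγ replicates 2 or 4 or IFNα replicates 1 or 2 was left out (log2 -0.58 to -0.53). CXCL11 passed without a filter on low counts and in a fit of only the 8 libraries compared (log2 -0.72, adjusted p 0.00417 to 0.0275). HLA-B did not pass without a filter on low counts (log2 -0.59, adjusted p 0.178).

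Antiviral effectors were lower with IFNγ than with IFNα in 32 of 36 tested genes and higher in 0. IFIT1 had 14475, 14702, 16576 and 16304 CPM with IFNα, against 130 to 487 CPM with IFNγ (-5.81 ± 0.50, adjusted p = 6.2e-12). RSAD2 had 796, 742, 736 and 695 CPM with IFNα against at most 4.15 CPM (-8.99 ± 0.52), MX1 differed by -5.39 and OASL by -5.88, and HERC5 was at least 88.4-fold lower with IFNγ. USP18 (-4.38) and RIGI (-3.64) were lower as well. CSAG3, PRSS35, BTF3L4P2 and C3AR1 completed the 10 genes named as most lowered, at bounds of at least 7.02-fold, 3.35-fold, 2.70-fold and 7.35-fold. BTF3L4P2 no longer passed when any of IFNγ replicates 1, 2, 3 or 4 or IFNα replicates 1 or 2 was left out (fitted log2 -6.27 to -5.74). OASL did not pass in the DESeq2 Wald test (log2 -5.98, adjusted p 0.654).

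The repressed programs differed in both directions. Of 20 tested contractile genes, 7 were lower with IFNγ than with IFNα and 0 higher, among them PLN (5.93 to 15.1 CPM with IFNα, adjusted p = 0.00018), ACTA2 (-1.98) and MYLK (-1.94). IGF1 stood at 168, 213, 235 and 212 CPM with IFNα and was lower with IFNγ by 2.36 on the log2 scale (adjusted p = 3.7e-10). Cell-cycle genes went the other way, with 11 of 22 tested members higher with IFNγ and 0 lower. TOP2A had 17.6, 23.0, 9.53 and 11.2 CPM with IFNα, below all 4 IFNγ libraries (2.28 ± 0.33, adjusted p = 2.95e-06), and CDK1 had 28.7, 19.8, 23.0 and 24.3 CPM (1.34, adjusted p = 0.0007). Collagens gave 0 higher and 1 lower, COL5A2, which stood at 455, 427, 385 and 358 CPM with IFNα against 124 to 278 CPM with IFNγ (-1.06, adjusted p = 0.00024).

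**Figure D5:**
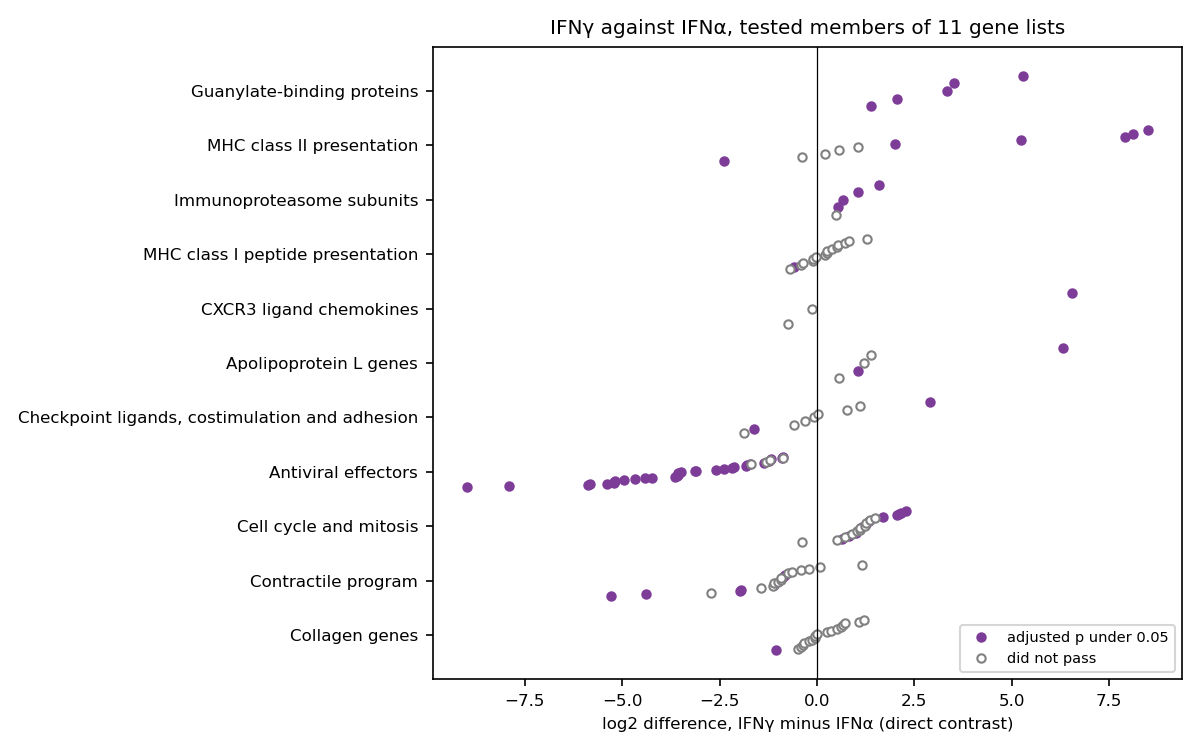
Log2 difference, IFNγ minus IFNα in the direct contrast (x axis), for the tested members of 11 gene lists (rows), filled where the adjusted p is under 0.05. Guanylate-binding, MHC class II and cell-cycle genes lie mostly to the right, antiviral and contractile genes mostly to the left, and class I genes lie around 0. Values of genes at the counting floor in a group are fitted and not measured ratios.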

How the data were processed

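RNA of 44 Ccd-18Co libraries (11 groups of 4) was sequenced in bulk. The authors quantified reads with kallisto, and the deposited table holds estimated counts for 40663 gene symbols, of which 16928 were at 0 in every library and 5.77% of values were not whole. The submitters' processing notes name kallisto 0.48.0, FastQC 0.11.9, MultiQC 1.14 and hg38. The transcriptome release and strand setting were not given in the sources used here. Estimated counts can be split among near-identical transcripts.

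Here, counts were rounded, genes filtered with filterByExpr, scaled by TMM and fitted over all 44 libraries with 1 coefficient per group by the quasi-likelihood test of edgeR 4.0.16 (R 4.3.3), with Benjamini-Hochberg adjustment. The totals of the 8 libraries were 1125442 to 1725354, so that 3 counts, the floor, correspond to about 2 CPM. The thresholds for a call were 0.05 for the adjusted p and 1.5 for the size of the log2 fold change. Named genes were list members, the 15 largest rises and falls among called genes with groups that did not overlap and a mean log2 CPM of at least 1, and the 10 largest differences each way from IFNα under the same conditions. Further genes are marked as chosen after their values were seen. Some genes that met these rules are not reported here. Members, lists and rules were chosen with earlier results of these data known. Alternatives were DESeq2 1.42.0, its size factors, other filters, a fold threshold of 1, only the 8 libraries compared, a replicate block and leaving out each library, and list counts without IFNγ replicate 2 were added after seeing the data. Positions are from GENCODE release 44, and promoters from RefSeq on GRCh38.p14.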

Additional observations from a re-analysis of the deposited data

Results flagged for a closer look

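In 111 groups of 4 libraries behind the values above, 7 values lay far from the other 3 of their group by Dixon's ratio of gap to range at its critical value. Chance flags about 1 in 20 groups. With IFNγ, IRF9 was high in replicate 4 (94.0 CPM), TOP2A was high in replicate 1 (123 CPM) and CDH2 was high in replicate 3 (23.4 CPM). PDCD1LG2 (9.14 CPM) and WARS1 (4329 CPM) were low in IFNγ replicate 2. Unstimulated, CXCL8 was high in replicate 4 (554 CPM), and CXCL11 was above 0 in replicate 3 alone (4.22 CPM).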

How the results depend on the processing

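The numbers of genes raised, lowered and changed at the adjusted p alone, and the numbers higher and lower than with IFNα, stayed within 1.5 times their values with DESeq2 size factors, the DESeq2 Wald test, both other filters and the replicate block. Fitting only the 8 libraries compared gave 54 lowered genes, 451 changed at the adjusted p alone and 64 higher than with IFNα, with fewer genes tested (7449 and 7409). With a log2 threshold of 1, 270 genes were lowered, 191 were higher than with IFNα and 292 lower. Leaving out 1 library gave 179 to 271 raised genes, 78 to 163 lowered, 670 to 1335 changed at the adjusted p alone, 83 to 127 higher than with IFNα and 134 to 176 lower. For named genes, 3290 of 3556 refits kept the side of the adjusted-p threshold, and 0 turned a direction that had passed. A turn of direction in a gene that passed in neither fit was not counted. Refits in which a named gene had no adjusted p are not among the 3556. Of the 218 that no longer passed, 163 left out 1 library, 31 used only the 8 libraries compared, 9 had no filter, 7 used the DESeq2 Wald test, 4 its size factors, 3 the replicate block and 1 the minimum of 10 counts. Another 48 newly passed. Over all tested genes, same-numbered IFNγ and unstimulated libraries had correlations of 0.006, 0.067, -0.046 and -0.059. Not every library correlated best with its own number. Control replicate 1 had the largest, 0.314 with IFNγ replicate 4 and -0.332 with IFNγ replicate 2. Single genes could still share an order. IL33 and TNFAIP6 were higher in replicates 3 and 4 than in 1 and 2 in the unstimulated, IFNγ and IFNα groups. IFIT1 with IFNγ was higher in replicates 1 and 2, and how many genes shared an order was not counted. The replicate block gave 232 raised, 118 lowered and 1136 changed genes, and 107 higher and 166 lower than with IFNα. With all libraries, CIITA, SOCS1, IRF8 and most class II chains had counts too low to pass the filter. Whether depth or low expression was the reason was not tested.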
